A study of Mus musculus with 14 samples.

Results

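The 10 Notch genes described here are the receptors Notch1, Notch2, Notch3 and Notch4, the ligands Dll1, Dll4, Jag1 and Jag2, and the target genes Hes1 and Hey1. They were taken by name: each is the transcript cluster (the set of probes that reads one gene on the array) whose platform annotation gives exactly 1 of these symbols. All 10 were measured, each by 1 such cluster, among 19938 named genes in all. The arrays held total RNA of mouse proximal duodenum, the first stretch of the small intestine, on a background labelled 129S7/SvEv and C57/BL6. The tumor group held 6 duodenal tumors of mice with the genotype Lrig1-CreERT2/CreERT2, in which both copies of Lrig1 carry an inserted tamoxifen-inducible recombinase (also labelled Lrig1-/-). The adjacent group held tissue labelled normal from 5 of the same 6 mice, so it carries the same deletion and the same insertion. The wildtype group held duodenum of 3 mice with intact Lrig1. The labels call the mice of all groups age matched and give no ages, and no group was given an agent. Each array is 1 tissue sample of 1 mouse, and tumor and adjacent tissue share 5 mice. The comparison between them took mouse as a random block and kept the tumor whose mouse gave no adjacent array. It is therefore only partly made within a mouse.

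Notch receptors sit in the cell membrane and are switched on by Delta-like or Jagged ligands on a neighbouring cell. Binding lets ADAM proteases and then the gamma-secretase complex cut the receptor. The freed intracellular part enters the nucleus, joins the DNA-binding protein RBPJ and turns on repressors of the Hes and Hey families. In intestinal crypts this signal, carried mainly by Notch1 and Notch2, keeps progenitors dividing and on the absorptive path. HES1 represses Atoh1, the factor that starts the secretory lineages, and cells that escape the signal show Dll1 and Dll4 to their neighbours. Notch4, Dll4 and Hey1 are also known from blood vessels, and Notch3 from the muscle cells around them.

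Promoter sequences are shown for the 3 ligands whose signal differed between tumor and adjacent tissue, since they moved in opposite directions. They are the windows from 250 bases before to 50 bases after the start annotated by RefSeq in the GRCm38.p6 build, 5′ to 3′ on the strand of the gene. Dll1 has 2 annotated starts: the first window lies at chr17:15375774-15376073 and the second at chr17:15376883-15377182, both on the minus strand. The Dll4 window lies at chr2:119325534-119325833 on the plus strand and the Jag1 window at chr2:137116471-137116770 on the minus strand. Capitals mark letters that match one of the motifs searched.
Dll1 first window: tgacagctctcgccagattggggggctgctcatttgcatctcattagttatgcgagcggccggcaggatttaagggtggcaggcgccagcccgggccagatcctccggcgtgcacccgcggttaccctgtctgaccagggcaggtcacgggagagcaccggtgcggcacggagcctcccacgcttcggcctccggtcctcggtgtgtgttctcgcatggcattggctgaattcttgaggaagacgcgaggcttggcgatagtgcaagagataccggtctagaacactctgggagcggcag
Dll1 second window: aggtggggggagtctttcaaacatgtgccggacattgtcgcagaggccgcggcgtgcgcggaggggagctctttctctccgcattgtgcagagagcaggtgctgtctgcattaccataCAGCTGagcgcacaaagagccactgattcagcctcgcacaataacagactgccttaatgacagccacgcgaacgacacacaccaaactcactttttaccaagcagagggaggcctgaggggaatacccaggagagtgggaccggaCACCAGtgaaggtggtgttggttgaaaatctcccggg
Dll4 window: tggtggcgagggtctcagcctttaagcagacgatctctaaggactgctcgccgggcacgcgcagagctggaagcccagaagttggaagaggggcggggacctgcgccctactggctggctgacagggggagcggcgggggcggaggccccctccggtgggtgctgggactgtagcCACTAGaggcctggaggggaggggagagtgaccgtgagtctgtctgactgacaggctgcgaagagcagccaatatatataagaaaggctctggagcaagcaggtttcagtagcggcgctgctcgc
Jag1 window: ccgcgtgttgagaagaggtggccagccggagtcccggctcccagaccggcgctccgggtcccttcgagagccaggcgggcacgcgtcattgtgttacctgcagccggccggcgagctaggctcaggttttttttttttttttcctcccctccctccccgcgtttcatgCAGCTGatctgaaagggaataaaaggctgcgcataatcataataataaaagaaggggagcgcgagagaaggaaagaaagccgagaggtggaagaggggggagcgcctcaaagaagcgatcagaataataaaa

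The search covered both strands for TGGGAA, the core read by RBPJ, CAGCTG, an E-box read by basic helix-loop-helix factors, and CACNAG, an N-box read by Hes repressors. Matches of different motifs did not overlap in the windows of these genes. Of the 10 genes, 8 had a window in the table, 9 windows in all, and Hes1 and Hey1 are named only. TGGGAA was found in 0 of the 9 windows and in 25.6% of all 32851 windows of this length. CAGCTG was found at position -82 of Jag1 and at position -132 of the second Dll1 window (the first transcribed base is 1), and in 16.3% of all windows. CACNAG was found at -75 of Dll4 and at 14 of the second Dll1 window, as well as in the windows of Notch1, Notch2 and Notch3, and in 42.5% of all windows. These are letter matches, not binding sites, and a window without a match says only that these letters are not in it.

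Values are log2 array signal, so a difference of 1 is a doubling, and levels of different genes cannot be compared because each has its own probes. Array medians lay between 7.11 and 7.29. Lrig1 (transcript cluster 10546510), read as a check on the labels, lay between 7.65 and 8.54 in tumors, between 6.95 and 7.40 in adjacent tissue and between 8.22 and 9.54 in wildtype duodenum. Whether its probes lie in the disrupted part of the gene is not known here. The mean of 10 epithelial markers lay between 12.7 and 13.0 in tumors, 12.6 and 12.8 in adjacent tissue and 12.7 and 12.9 in wildtype duodenum. The tissue is labelled epithelium, but 12 smooth muscle and pericyte markers averaged between 8.48 and 10.4 in tumors, 9.21 and 10.2 in adjacent tissue and 9.73 and 10.4 in wildtype duodenum. The mean of 12 pancreatic acinar genes was between 12.9 and 13.9 in 4 non-tumor arrays (adjacent replicates 1 and 2, wildtype replicates 1 and 3) and between 7.24 and 7.42 in the other 4. It lay between 7.27 and 9.67 in tumors. Gastric markers averaged 12.6 to 13.9 in tumors and 13.3 in wildtype replicate 1, while all other non-tumor arrays lay between 6.43 and 8.86. In whole tissue, fewer cells of a type and less RNA per cell cannot be told apart.

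The first comparison asks how the Notch genes differ between tumors and adjacent duodenum, which share 5 mice. Jag1, Hes1, Notch4 and Hey1 rose in tumors, and Dll1 and Dll4 fell, while Notch1, Notch2, Notch3 and Jag2 did not pass the test. That is 6 of 10 genes past an adjusted p of 0.05 in limma (two-sided moderated test, mouse as a random block, Benjamini-Hochberg over all genes), 4 higher and 2 lower. Among all 19938 genes 31.7% passed, 19.1% higher and 12.6% lower. The median log2 fold change was 0.15 over the 10 genes and 0.04 over all genes. Each of the 4 raised genes was higher in the tumor in 5 of 5 pairs, as were 22.9% of all genes, and both lowered ligands were lower in 5 of 5, as were 13.3% of all genes.

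**Figure D1:**
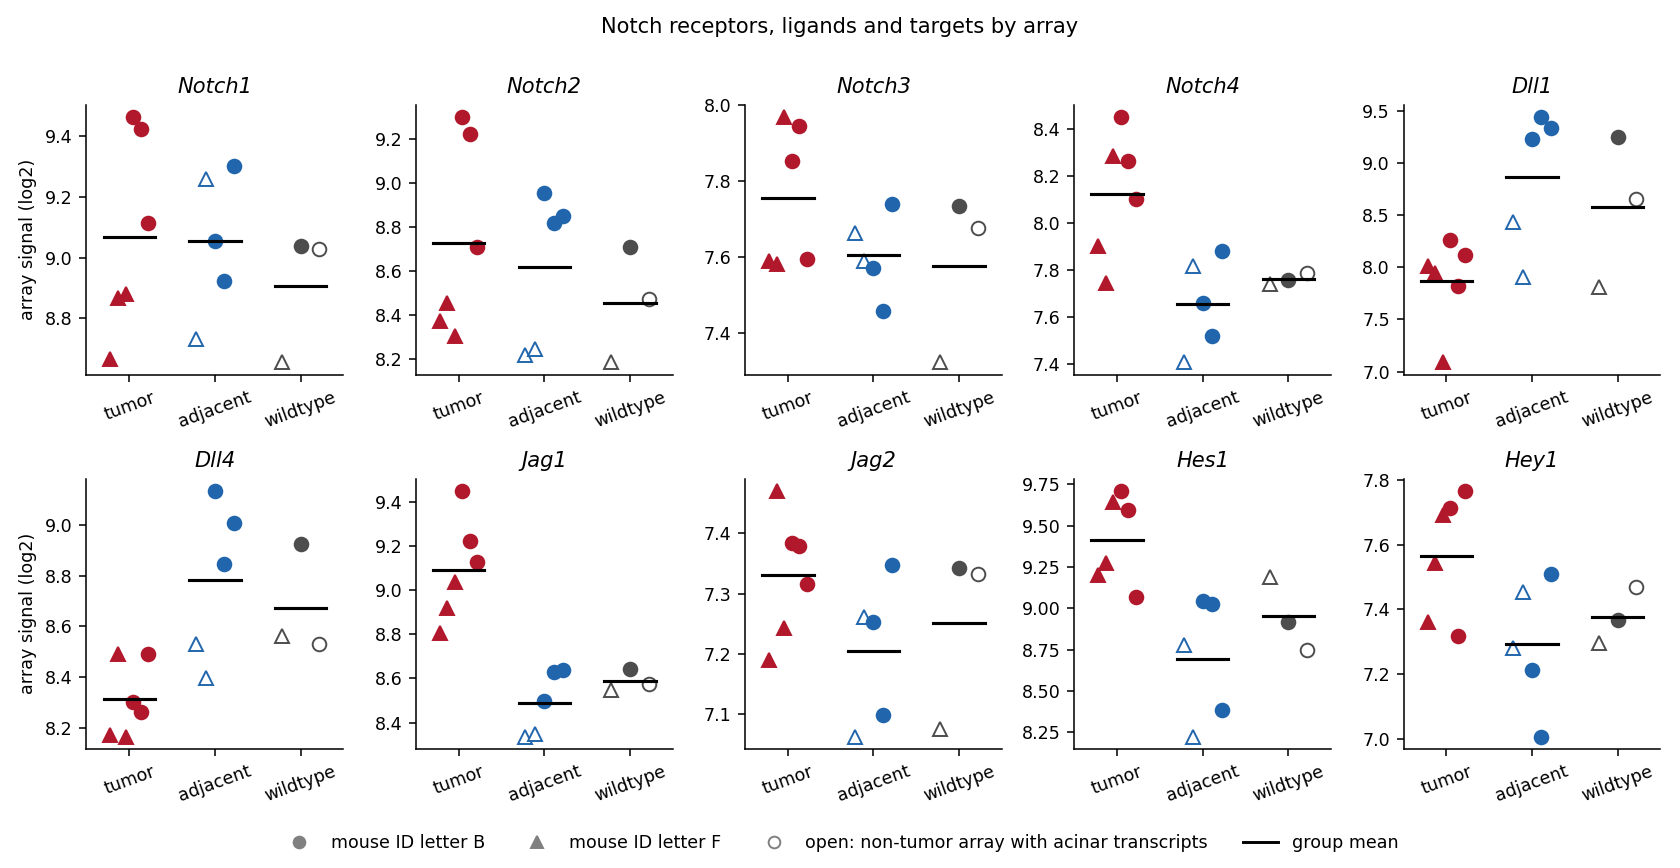
Log2 array signal of each Notch gene (vertical axis, its own range in each panel) in 6 tumor, 5 adjacent and 3 wildtype arrays. Each point is 1 array, bars are group means, the shape gives the first letter of the mouse ID, and open points are non-tumor arrays with acinar transcripts. Tumors stand clear of both other groups for Jag1 and below both means for Dll1 and Dll4.

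Among the receptors, Notch4 (transcript cluster 10444352), known mainly from endothelium, was the one that rose. Its log2 signal lay between 7.75 and 8.45 with a median of 8.18 in tumors, against 7.41, 7.82, 7.66, 7.52 and 7.88 in adjacent tissue and 7.74, 7.76 and 7.79 in wildtype duodenum. The tumors overlapped the adjacent arrays only through tumor replicate 2, and the 3 wildtype arrays lay close together. Group means were 8.13 ± 0.26 (SD, n = 6) in tumors, 7.66 ± 0.20 (n = 5) in adjacent tissue and 7.76 ± 0.02 (n = 3) in wildtype duodenum. The log2 fold change of Notch4 between tumor and adjacent tissue was 0.48 ± 0.10 (SE), or 1.398-fold, with an adjusted p of 0.00207 in limma. Of 14 endothelial markers, 3 rose (Cdh5 by 0.55 ± 0.15, Egfl7 by 0.45 ± 0.09 and Esam by 0.39 ± 0.12, log2) and 0 fell, a share of risen markers near the 19.1% of all genes. The mean of the 14 lay between 8.03 and 8.71 in tumors, 7.87 and 8.30 in adjacent tissue and 7.84 and 8.17 in wildtype duodenum. The part of blood vessels in the Notch4 difference was not tested.

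Notch1 (10481056), the receptor best known from crypt progenitors, had values between 8.67 and 9.46 with a median of 8.997 in tumors, against 8.73, 9.26, 9.06, 8.92 and 9.30 in adjacent tissue and 8.65, 9.04 and 9.03 in wildtype duodenum. The groups overlapped throughout. The log2 fold change of Notch1 between tumor and adjacent tissue was 0.04 ± 0.13 (SE), with a 95% interval from -0.25 to 0.33 and an adjusted p of 0.873 in limma, and the tumor was higher in 3 of 5 pairs.

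Notch2 (10494595), which acts beside Notch1 in the crypt, lay between 8.31 and 9.30 with a median of 8.58 in tumors, against 8.22, 8.25, 8.95, 8.82 and 8.85 in adjacent tissue and 8.19, 8.71 and 8.48 in wildtype duodenum. Inside the tumor group and inside the adjacent group its values were higher with 1 ID letter than with the other, without overlap. Mouse IDs in the labels begin with F or B, with no meaning given. In tumors Notch2 lay between 8.71 and 9.30 in the 3 mice with letter B and between 8.31 and 8.45 in the 3 with letter F. In adjacent tissue it lay between 8.82 and 8.95 with letter B and between 8.22 and 8.25 with letter F. The wildtype arrays had 8.71 and 8.48 with letter B and 8.19 with letter F. Over all groups the difference for Notch2 was 0.61 ± 0.10 (SE, letter B minus letter F, log2) with an adjusted p of 0.0221 in limma, a test added after the values were seen. Of all genes 1.24% passed that test, and 0.737% were higher with letter B than with letter F without overlap both among tumors and among non-tumor arrays. Between tumor and adjacent tissue the log2 fold change of Notch2 was 0.13 ± 0.16 (SE), with a 95% interval from -0.21 to 0.47 and an adjusted p of 0.612.

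Notch3 (10449775), a receptor of vascular smooth muscle and pericytes, lay between 7.58 and 7.97 with a median of 7.72 in tumors, against 7.66, 7.59, 7.57, 7.46 and 7.74 in adjacent tissue and 7.32, 7.73 and 7.68 in wildtype duodenum. The groups overlapped throughout. Its log2 fold change between tumor and adjacent tissue was 0.16 ± 0.09 (SE), with a 95% interval from -0.04 to 0.36 and an adjusted p of 0.230 in limma. Of the 12 smooth muscle and pericyte markers, 0 rose and 2 fell in tumors (Mylk by 0.85 ± 0.14 and Cspg4 by 0.33 ± 0.11, log2). Of all genes 19.1% rose and 12.6% fell, and over so few markers these counts carry little.

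Among the ligands, Jag1 (10488060), a Jagged ligand, rose without overlap between the groups. It lay between 8.81 and 9.45 with a median of 9.08 in tumors, against 8.34, 8.35, 8.50, 8.63 and 8.64 in adjacent tissue and 8.55, 8.64 and 8.57 in wildtype duodenum. The lowest tumor was above the highest of the 8 non-tumor arrays. Means were 9.09 ± 0.23 (SD, n = 6) in tumors, 8.49 ± 0.15 (n = 5) in adjacent tissue and 8.59 ± 0.05 (n = 3) in wildtype duodenum. Between tumor and adjacent tissue Jag1 had a log2 fold change of 0.62 ± 0.09 (SE), or 1.54-fold, with an adjusted p of 9.05e-05. Tumor minus adjacent ran from 0.49 to 0.95 over the 5 pairs of Jag1. All tumors lay above all adjacent arrays in 10.3% of all genes.

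Dll1 (10448034), a Delta-like ligand shown by secretory progenitors of the crypt, fell. Over all arrays its change was the largest of the 10, but within ID letter F Hes1 and Jag1 changed more. Against adjacent arrays with acinar transcripts the genes that changed more included Hes1, Jag1 and Notch4. Dll1 lay between 7.09 and 8.26 with a median of 7.98 in tumors, against 8.43, 7.90, 9.23, 9.44 and 9.34 in adjacent tissue and 7.81, 9.25 and 8.66 in wildtype duodenum. Adjacent replicate 2 and wildtype replicate 1 lay within the tumors' range, and the other 6 non-tumor arrays lay above it. Means were 7.87 ± 0.41 (SD, n = 6) in tumors, 8.87 ± 0.67 (n = 5) in adjacent tissue and 8.57 ± 0.72 (n = 3) in wildtype duodenum. The log2 fold change of Dll1 between tumor and adjacent tissue was -1.01 ± 0.24 (SE), a ratio of 0.497, with an adjusted p of 0.00521. In the 5 pairs of Dll1 the tumor minus adjacent difference ran from -1.63 to -0.49. Several marker lists were lower in tumors as Dll1 was: 9 of 10 absorptive enterocyte, 8 of 8 T and NK cell and 8 of 10 macrophage and dendritic cell markers fell, where 12.6% of all genes did. Absorptive markers averaged between 10.7 and 11.3 in tumors, 13.1 and 13.8 in adjacent tissue and 12.5 and 13.7 in wildtype duodenum. T and NK cell markers averaged between 7.04 and 8.14 in tumors, 9.29 and 9.68 in adjacent tissue and 8.55 and 9.51 in wildtype duodenum. Of 10 enteroendocrine markers, 0 rose and 5 fell, and their mean lay between 7.88 and 9.03 in tumors, 9.40 and 9.50 in adjacent tissue and 9.04 and 9.30 in wildtype duodenum. Of 9 goblet and Paneth cell markers 3 rose and 3 fell, with a mean between 11.8 and 12.7 in tumors, 12.4 and 12.7 in adjacent tissue and 12.3 and 12.9 in wildtype duodenum. The part of these cells in the Dll1 difference was not tested.

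Dll4 (10474958), a Delta-like ligand of secretory crypt cells and of sprouting vessels, lay between 8.16 and 8.49 with a median of 8.28 in tumors, against 8.53, 8.40, 9.13, 8.85 and 9.01 in adjacent tissue and 8.56, 8.92 and 8.53 in wildtype duodenum. Adjacent replicate 2 lay within the tumors' range, and the other non-tumor arrays lay above it. Means were 8.31 ± 0.15 (SD, n = 6) in tumors, 8.78 ± 0.31 (n = 5) in adjacent tissue and 8.67 ± 0.22 (n = 3) in wildtype duodenum. For Dll4 the log2 fold change between tumor and adjacent tissue was -0.46 ± 0.11 (SE), a ratio of 0.727, with an adjusted p of 0.00577 in limma. The part of blood vessels or of the cell types named for Dll1 in the Dll4 difference was not tested.

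Jag2 (10402808), the other Jagged ligand, lay between 7.19 and 7.47 with a median of 7.35 in tumors, against 7.06, 7.26, 7.25, 7.10 and 7.35 in adjacent tissue and 7.08, 7.34 and 7.33 in wildtype duodenum. Its groups overlapped, and the whole spread over the 14 arrays was narrow. In limma the log2 fold change of Jag2 between tumor and adjacent tissue was 0.13 ± 0.07 (SE), with a 95% interval from -0.02 to 0.29 and an adjusted p of 0.196.

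The target Hes1 (10434925), the repressor of Atoh1, lay between 9.07 and 9.71 with a median of 9.43 in tumors, against 8.78, 8.23, 9.04, 9.02 and 8.39 in adjacent tissue and 9.19, 8.92 and 8.75 in wildtype duodenum. The lowest tumor lay just above the highest adjacent array, and wildtype replicate 1 lay inside the tumors' range. Means were 9.41 ± 0.27 (SD, n = 6) in tumors, 8.69 ± 0.37 (n = 5) in adjacent tissue and 8.95 ± 0.22 (n = 3) in wildtype duodenum. Hes1 had a log2 fold change between tumor and adjacent tissue of 0.74 ± 0.14 (SE), or 1.67-fold, with an adjusted p of 0.000884 in limma. Within the mice the Hes1 difference ran from 0.49 to 1.41, the highest in the mouse of tumor replicate 3.

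The target Hey1 (10497203), a repressor best known from vessels, lay between 7.32 and 7.77 with a median of 7.62 in tumors, against 7.28, 7.45, 7.21, 7.01 and 7.51 in adjacent tissue and 7.29, 7.37 and 7.47 in wildtype duodenum. Tumor and adjacent values overlapped as groups, while within each mouse the tumor was higher, by 0.24 to 0.50 in Hey1. Relative to adjacent tissue its log2 fold change was 0.29 ± 0.09 (SE), or 1.22-fold, with an adjusted p of 0.0185 in limma. This call rested on the pairing and on single arrays. For Hey1 the adjusted p was 0.0895 without the mouse as a block, 0.0747 without tumor replicate 6, 0.0651 without adjacent replicate 3, 0.0579 without tumor replicate 4 and 0.0545 without adjacent replicate 4. In tumors 6 of 10 fibroblast and 6 of 9 mast cell markers rose and 0 fell, where 19.1% of all genes rose. Fibroblast markers averaged between 8.42 and 9.05 in tumors, 7.97 and 8.41 in adjacent tissue and 8.04 and 8.67 in wildtype duodenum. The part of these cells in the Jag1, Hes1 and Hey1 differences was not tested.

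**Figure D2:**
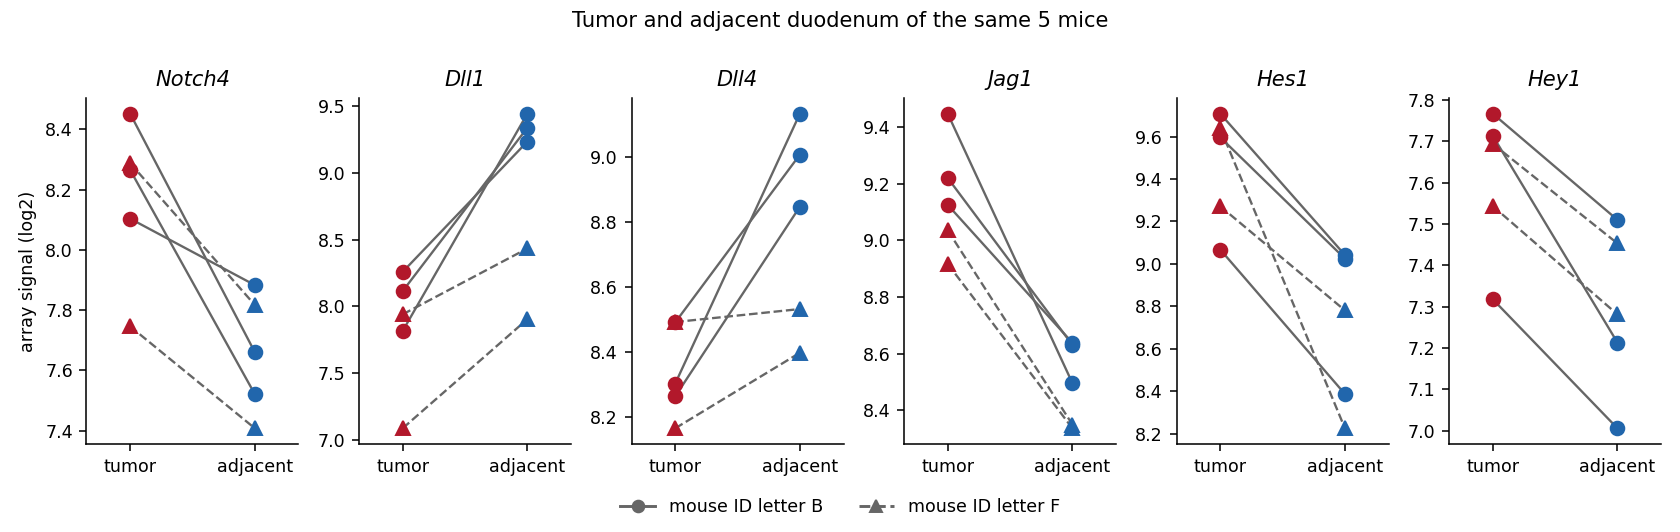
Log2 array signal of the 6 Notch genes past the threshold in tumor and adjacent tissue of the same 5 mice (lines join a mouse; solid lines with circles are ID letter B, dashed lines with triangles letter F). Notch4, Jag1, Hes1 and Hey1 slope down toward adjacent tissue in 5 of 5 mice, and Dll1 and Dll4 slope up in 5 of 5, the 2 mice with letter F least for both ligands.

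The other genes of the pathway were described from a list of 76 genes, of which 73 were measured. Between tumor and adjacent tissue 18 of the 73 rose and 20 fell, where 19.1% of all genes rose and 12.6% fell, and the median log2 fold change was 0.04. Of the 63 that are not among the 10 genes above, 14 rose and 18 fell, with a median of 0.0042, against 0.04 over all genes. Of 8 ligands 1 rose and 2 fell, those described above. The ligands Dll3, Dlk1, Dlk2 and Dner did not pass, with log2 fold changes from -0.04 to 0.11.

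Of 9 genes for the machinery that cuts the receptor, 4 rose between tumor and adjacent tissue, 0 fell and 5 did not pass. Over so few genes a count of 0 falls carries little, since 12.6% of all genes fell and 19.1% rose. Adam10, the protease that makes the first cut after ligand binding, averaged 11.22 ± 0.17 (SD, n = 6) in tumors and 10.50 ± 0.09 (n = 5) in adjacent tissue, and rose by 0.72 ± 0.12 (SE, log2, adjusted p = 0.000301 in limma). Ncstn, a subunit of gamma-secretase, averaged 11.52 ± 0.05 in tumors and 11.004 ± 0.13 in adjacent tissue, a log2 fold change of 0.52 ± 0.06. Furin, which cuts the receptor during its passage to the surface, had a log2 fold change of 0.43 ± 0.12, and Adam17, a related protease, 0.40 ± 0.14, though Adam17 passed in only 14 of 28 alternatives. The other gamma-secretase subunits measured, Psen2, Aph1a, Aph1b, Aph1c and Psenen, did not pass, with log2 fold changes from -0.14 to 0.12. Of 5 enzymes that add sugars to the receptor, Poglut1 (0.56 ± 0.12, SE), Lfng (0.43 ± 0.12) and Pofut1 (0.32 ± 0.07) rose on the log2 scale. Rfng, a fringe enzyme like Lfng, fell by 0.45 ± 0.11.

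More genes fell than rose among those that pull the receptor or its ligands from the surface or mark them for breakdown. Of 15 genes for trafficking and ubiquitin ligases 7 fell, 1 rose and 7 did not pass, where 12.6% of all genes fell and 19.1% rose. Numb, an endocytic adaptor that restrains Notch, averaged 10.56 ± 0.14 (SD, n = 6) in tumors, 11.47 ± 0.07 (n = 5) in adjacent tissue and 11.25 ± 0.17 (n = 3) in wildtype duodenum. Its log2 fold change between tumor and adjacent tissue was -0.92 ± 0.07 (SE, adjusted p = 1.17e-06 in limma). Dtx1, a Deltex ubiquitin ligase, averaged 8.10 ± 0.15 in tumors, 9.07 ± 0.18 in adjacent tissue and 9.03 ± 0.29 in wildtype duodenum, with a log2 fold change of -0.96 ± 0.09 between tumor and adjacent tissue. The ligases Neurl3 (-0.69 ± 0.10) and Neurl1b (-0.67 ± 0.13), relatives of the Neuralized ligase that acts on Notch ligands, also fell. The riser was Numbl, a relative of Numb, by 0.25 ± 0.08; it passed in 19 of 28 alternatives and was named after its value was seen.

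In the nucleus 4 of 16 genes rose and 5 fell between tumor and adjacent tissue, against 19.1% and 12.6% of all genes, and 7 did not pass. Kat2a, a histone acetyltransferase, averaged 9.89 ± 0.15 (SD, n = 6) in tumors and 9.12 ± 0.16 (n = 5) in adjacent tissue, and rose by 0.78 ± 0.08 (SE, log2, adjusted p = 8.46e-06 in limma). Hdac1, a histone deacetylase found in corepressor complexes, rose by 0.57 ± 0.10. The Groucho corepressors Tle4 (-0.88 ± 0.12) and Tle1 (-0.47 ± 0.11), partners of Hes proteins, fell. Rbpj itself, named for its role and not by its change, had a log2 fold change of 0.04 ± 0.12 and did not pass.

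Of 9 targets listed, Hes1 and Hey1 rose, 3 fell and 4 did not pass between tumor and adjacent tissue, where 19.1% of all genes rose and 12.6% fell. The share of risen targets is near that of all genes. Olfm4, a crypt stem cell product whose transcription needs Notch in the mouse intestine, averaged 11.33 ± 0.36 (SD, n = 6) in tumors, 12.36 ± 0.13 (n = 5) in adjacent tissue and 12.24 ± 0.15 (n = 3) in wildtype duodenum. Its log2 fold change between tumor and adjacent tissue was -1.03 ± 0.13 (SE, adjusted p = 4.28e-05 in limma). Nrarp, a feedback inhibitor made in response to Notch, averaged 8.35 ± 0.25 in tumors, 8.96 ± 0.31 in adjacent tissue and 8.72 ± 0.08 in wildtype duodenum, with a log2 fold change of -0.60 ± 0.13 and an adjusted p of 0.00179. The last of the 3, Heyl, a Hey-family repressor, fell by 0.20 ± 0.07 (adjusted p = 0.0353) and was named after its value was seen. Within letter F the log2 fold change was -0.25 for Nrarp (adjusted p = 0.498) and -0.66 for Olfm4 (0.0590), and against adjacent arrays with acinar transcripts Nrarp had -0.27 (0.358). Heyl passed in 14 of 28 alternatives.

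Of 7 genes listed as secretory fate genes that Notch represses, 2 rose, 2 fell and 3 did not pass, where 19.1% of all genes rose and 12.6% fell. Spdef, a factor of goblet and Paneth cell maturation, averaged 11.10 ± 0.71 (SD, n = 6) in tumors, 9.20 ± 0.07 (n = 5) in adjacent tissue and 9.61 ± 0.75 (n = 3) in wildtype duodenum. Its log2 fold change between tumor and adjacent tissue was 1.97 ± 0.26 (SE, adjusted p = 4.88e-05 in limma). The part of gastric cells, whose markers also rose in tumors, in the Spdef difference was not tested. The other riser, Ascl2 (0.49 ± 0.16), is a factor of crypt stem cells and not of a secretory fate, and it passed in 16 of 28 alternatives. Neurod1 (-1.001 ± 0.16), a factor of enteroendocrine cells, and Gfi1 (-0.33 ± 0.09), a repressor in the secretory branch, fell. Atoh1, shown for its place under Hes1 and chosen after its value was seen, averaged 9.82 ± 0.51 in tumors, 10.17 ± 0.16 in adjacent tissue and 10.17 ± 0.34 in wildtype duodenum. Its log2 fold change between tumor and adjacent tissue was -0.37 ± 0.18 with an adjusted p of 0.132, so it did not pass.

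**Figure D3:**
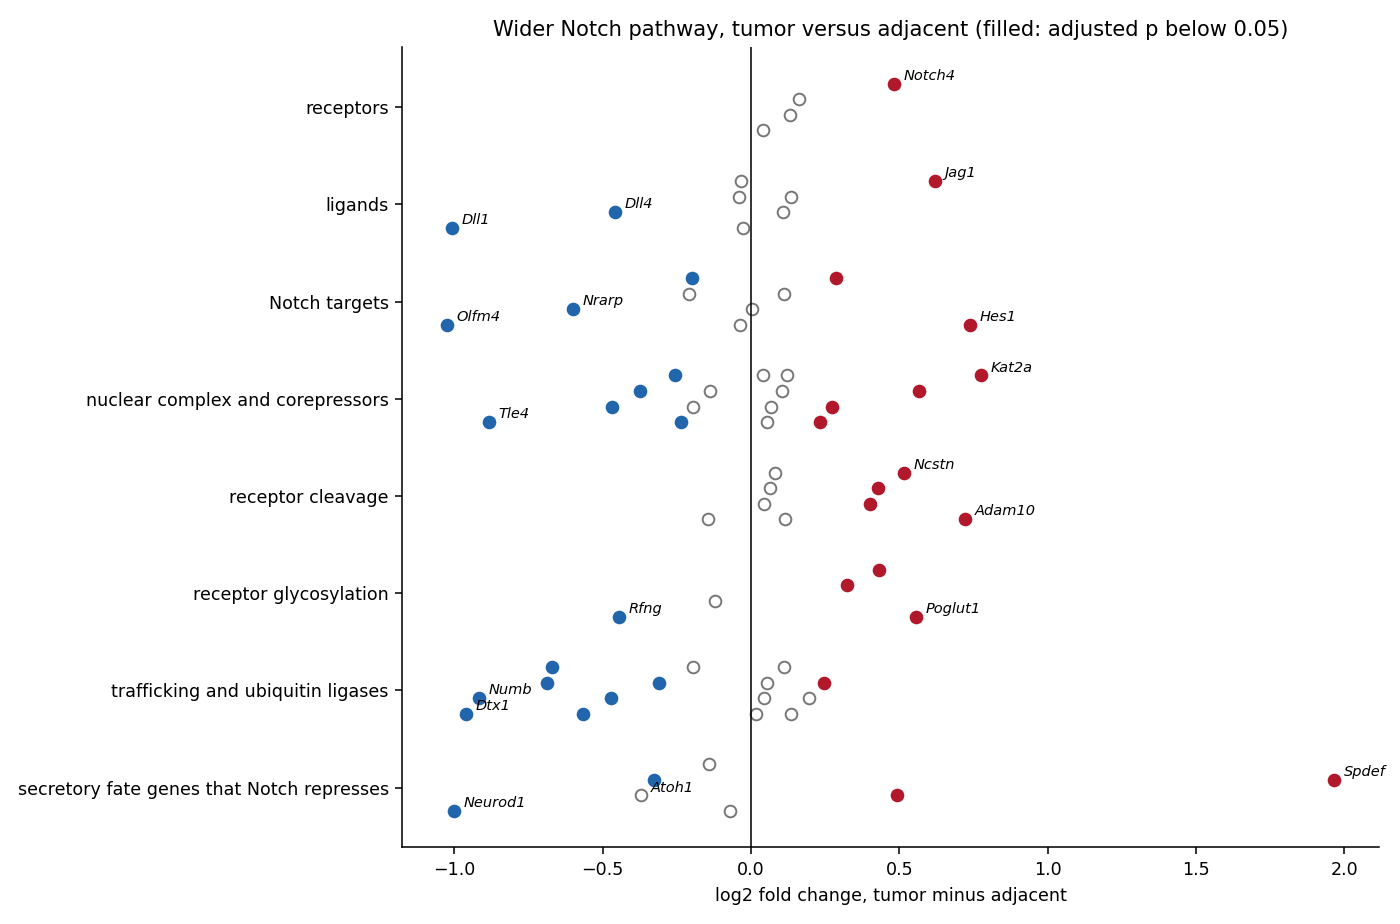
Log2 fold change between tumor and adjacent tissue (horizontal axis) of 73 Notch pathway genes by class (rows); each point is 1 gene and filled points passed an adjusted p of 0.05. The 4 filled receptor cleavage genes lie right of 0, 7 of the 8 filled trafficking genes lie left of it, and Spdef lies farthest right at 1.97.

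The second comparison sets tumors against the duodenum of mice with intact Lrig1, and it shares its tumor arrays with the first. Of the 10 genes Jag1 rose and the other 9 did not pass, where 14.1% of all 19938 genes passed in limma and 9.65% were higher. The log2 fold change of Jag1 between tumor and wildtype was 0.50 ± 0.13 (SE), or 1.42-fold, with an adjusted p of 0.0162, and its tumors lay above all wildtype arrays, as in 8.53% of all genes. Leaving out wildtype replicate 2 gave Jag1 an adjusted p of 0.0614, and leaving out wildtype replicate 3 gave 0.0707. The same call remained without wildtype replicate 1, with an adjusted p of 0.0306.

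Dll4 was lower in 6 of 6 tumors than in any wildtype array, as were 5.04% of all genes, yet its log2 fold change of -0.36 ± 0.16 (SE) had an adjusted p of 0.165 in limma. Dll1 had a log2 fold change of -0.70 ± 0.35 between tumor and wildtype, with a 95% interval from -1.44 to 0.03 and an adjusted p of 0.213. Without wildtype replicate 1, the array with gastric and acinar transcripts, the log2 fold change of Dll1 was -1.08 with an adjusted p of 0.0423. It was the only 1 of the 14 fits without 1 array in which Dll1 passed. Over those 14 fits the log2 fold change of Dll1 ran from -1.08 to -0.365, and its adjusted p in limma reached 0.696. Dll1 passed in 3 of the other 13 alternatives. Hes1 had 0.46 ± 0.20 (adjusted p = 0.144), Notch4 0.37 ± 0.15 (0.117) and Hey1 0.19 ± 0.12 (0.365) as log2 fold changes between tumor and wildtype. Those of Notch1, Notch2, Notch3 and Jag2 ran from 0.08 to 0.27, with adjusted p from 0.455 to 0.698. The median over the 10 genes was 0.18, against -0.0023 over all genes.

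In the wider list 8 of 73 genes rose and 5 fell between tumor and wildtype, shares near those of all genes, of which 14.1% passed and 9.65% rose. Kat2a (0.92 ± 0.12, SE, log2), Poglut1 (0.70 ± 0.16), Ncstn (0.54 ± 0.09), Furin (0.52 ± 0.16) and Pofut1 (0.39 ± 0.10) rose. So did Spdef (1.498 ± 0.37) and Maml3 (0.39 ± 0.12), a coactivator of the Notch complex. Over the 27 alternatives run for this comparison Furin passed in only 10 and Maml3 in only 11. Dtx1 (-0.94 ± 0.13), Olfm4 (-0.91 ± 0.19), Numb (-0.69 ± 0.10), Neurl3 (-0.67 ± 0.14) and Tle4 (-0.64 ± 0.16) fell.

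The third comparison asks whether duodenum without Lrig1 differs from wildtype duodenum outside the tumor. Of the 10 Notch genes 0 passed in limma, as did 0 of all 19938 genes. An unadjusted p below 0.05 was found for 559 genes, 2.8% of all, and for 0 of the 10. The log2 fold changes of the 10 between adjacent and wildtype tissue ran from -0.27 ± 0.20 (SE) for Hes1 to 0.30 ± 0.36 for Dll1, each with an adjusted p of 0.998. With 5 against 3 arrays the 95% intervals were wide. That of Dll1 ran from -0.46 to 1.06 and that of Jag1 from -0.39 to 0.16, so differences within these ranges were not excluded. Of the 73 pathway genes 0 passed in limma, and Numb alone had an unadjusted p below 0.05, with a log2 fold change of 0.23 ± 0.11. Over all genes 1691 passed in this comparison with arrays weighted by quality. With trend and robust moderation, quantile normalization, only genes above the median, or without wildtype replicate 3, 1 gene passed. In each of these settings 0 of the 10 Notch genes passed. Within ID letter F the wildtype group is 1 array, replicate 1, which carries gastric and acinar transcripts, so no count is given there.

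**Figure D4:**
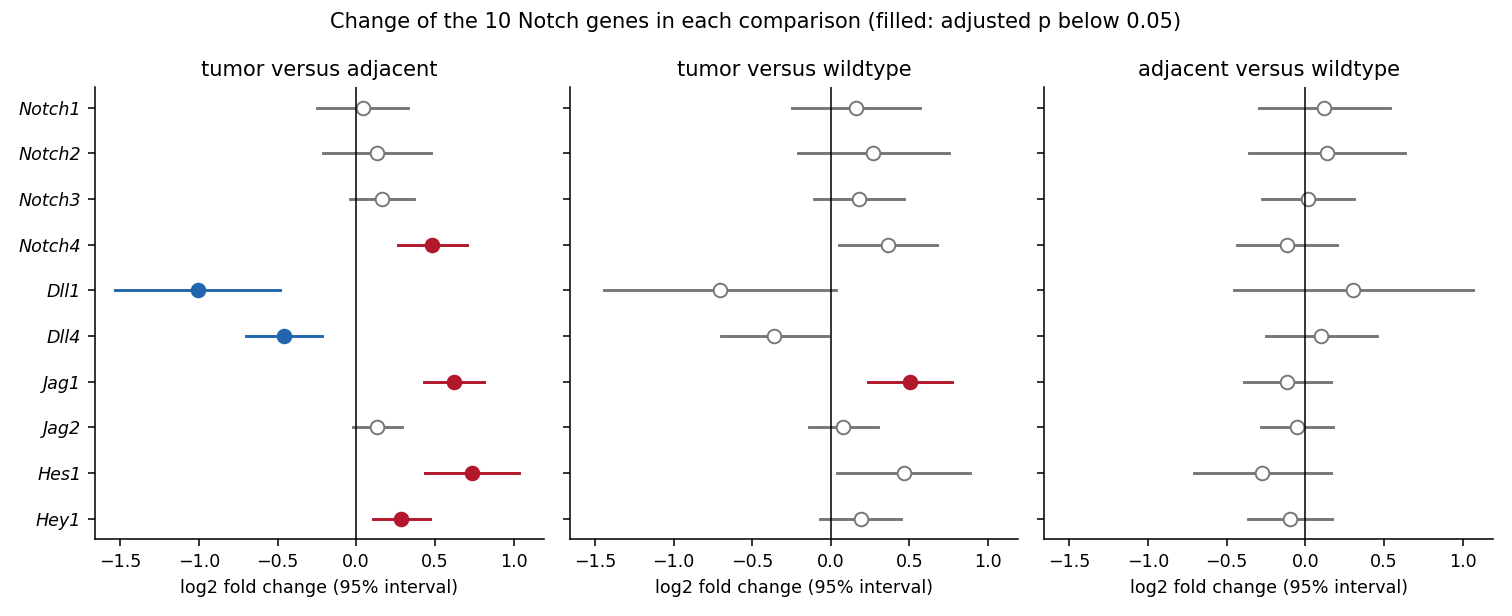
Log2 fold change with its 95% interval (horizontal axis) of the 10 Notch genes in tumor versus adjacent, tumor versus wildtype and adjacent versus wildtype tissue (panels, left to right); filled points passed an adjusted p of 0.05. 6 points are filled in the first panel, only Jag1 in the second and none in the third.

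The 2 ligands that fell varied among the non-tumor arrays together with acinar, absorptive and gastric transcripts. The mean of 10 absorptive enterocyte markers lay between 12.5 and 13.3 where acinar transcripts were present (4 arrays) and between 13.6 and 13.8 where they were not (4 arrays). Gastric markers averaged between 7.62 and 13.3 with acinar transcripts and between 6.43 and 6.97 without, and macrophage and dendritic cell markers between 9.37 and 9.63 with and between 9.58 and 10.1 without. Dll1 averaged 8.20 ± 0.41 (SD) in the 4 of these arrays that carried acinar transcripts and 9.32 ± 0.09 in the 4 that did not. Dll4 averaged 8.51 ± 0.07 in the arrays with acinar transcripts and 8.98 ± 0.12 in those without. Notch2 averaged 8.28 ± 0.13 with acinar transcripts and 8.83 ± 0.10 without. For these 3 genes the 4 arrays with acinar transcripts all lay below the 4 without. How many of all genes split in this way was not counted, so whether 3 of 10 is more than in other genes is not known. The ID letter follows nearly the same line, since 3 of the 4 arrays with acinar transcripts come from mice with letter F and the 4 without them from mice with letter B. Among adjacent arrays the 2 splits are identical. Adjacent replicates 1 and 2 are letter F with acinar transcripts, and adjacent replicates 3, 4 and 5 are letter B without them. The split was seen in the data and is not a group of the study, and the part of acinar tissue, or of the other cell types named, in these differences was not tested.

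Against adjacent arrays without acinar transcripts the log2 fold change in tumors was -1.40 for Dll1 and -0.67 for Dll4, and both passed. Against the 2 adjacent arrays with acinar transcripts it was -0.38 for Dll1 (adjusted p = 0.490 in limma) and -0.15 for Dll4 (0.534), and neither passed. Within mice of letter B the log2 fold changes were -1.27 for Dll1 and -0.64 for Dll4, and both passed. Within letter F they were -0.53 for Dll1 (adjusted p = 0.295) and -0.18 for Dll4 (0.480). Tested directly, the change in letter B minus the change in letter F was -0.73 ± 0.30 (SE) for Dll1, with an unadjusted p of 0.0330 and an adjusted p of 0.384. For Dll4 it was -0.47 ± 0.17, with an unadjusted p of 0.0187 and an adjusted p of 0.319. That limma test, added after the values were seen, passed after adjustment for 0 of the 10 genes and for 0.0351% of all genes. Its unadjusted p was below 0.05 for Dll1 and Dll4 only among the 10, and for 2325 of all 19938 genes.

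Jag1 rose in each of these subsets, which are not separate checks because the letter and acinar splits share their adjacent arrays. Its log2 fold change between tumor and adjacent tissue was 0.68 within letter B and 0.59 within letter F, and 0.57 and 0.72 against adjacent arrays without and with acinar transcripts. Hes1 had 0.64 within letter B and 0.89 within letter F, and 0.61 and 0.92 against adjacent arrays without and with acinar transcripts. It passed in all but letter F, where the adjusted p was 0.0534 in limma with 2 adjacent arrays. Notch4 had 0.59 within letter B and 0.37 within letter F (adjusted p = 0.253), and 0.49 against either set of adjacent arrays (adjusted p = 0.0979 with those that carry acinar transcripts).

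**Figure D5:**
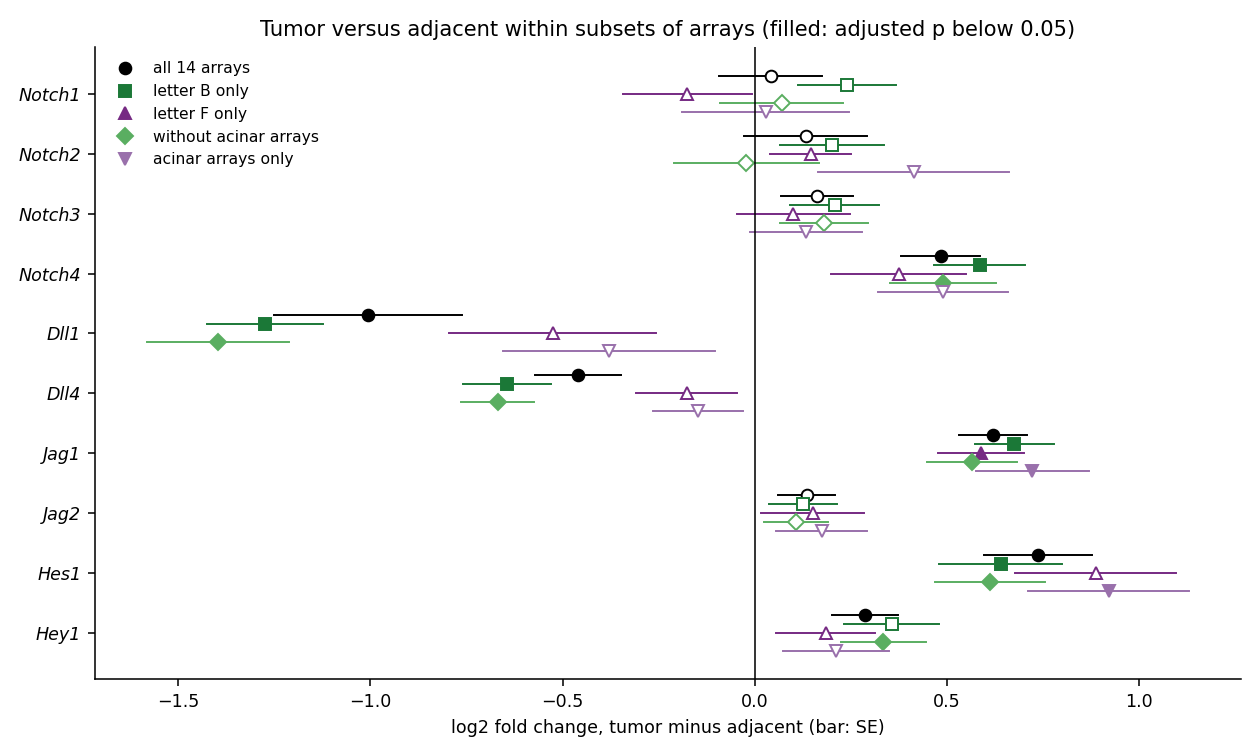
Log2 fold change between tumor and adjacent tissue with its SE (horizontal axis) for each Notch gene, over all 14 arrays and within 4 subsets; filled markers passed an adjusted p of 0.05. Jag1 markers are filled in every subset at 0.57 to 0.72, while Dll1 and Dll4 lie nearer 0 within letter F and against adjacent arrays with acinar transcripts. The letter and acinar subsets share the same adjacent arrays.

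Inside the tumor group 3 of the 10 genes were higher with letter B than with letter F without overlap, as were 3.37% of all genes. Notch1 lay between 9.11 and 9.46 in letter B tumors and between 8.67 and 8.88 in letter F tumors. Jag1 lay between 9.13 and 9.45 in letter B tumors and between 8.81 and 9.04 in letter F tumors. The third was Notch2, described above. Over all groups the letter difference was 0.36 ± 0.13 (SE, log2) for Notch1 with an adjusted p of 0.195 in limma and 0.25 ± 0.08 for Jag1 with an adjusted p of 0.162. For Dll1 it was 0.80 ± 0.21 with an adjusted p of 0.0705.

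The genes whose signal ran most like each Notch gene over the 14 arrays were read as the 3 with the highest Pearson correlation. Such a correlation describes arrays that share mice and the contrast of tumor with normal tissue, and it says nothing of shared control. Nearest to Jag1 were Cadm1 (r = 0.978), Mst1r (0.970) and Sertad4 (0.961). Nearest to Dll1 were Aldh16a1 (r = 0.968), Eppk1 (0.968) and Gucy2c (0.966), and to Dll4 Mlf2 (0.943), Vsig10 (0.932) and Itgax (0.929). Notch4 ran with Inhbb (r = 0.963), Hes1 with Ssh3 (0.938), Hey1 with Alpl (0.934), Notch2 with Prpf8 (0.941), Notch1 with Hspg2 (0.905), Jag2 with Sergef (0.895) and Notch3 with Plekhd1os (0.890). Among the genes nearest to Notch3 was also Dtx4 (0.861), a Deltex ligase of the pathway list.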

How the data were processed

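The authors deposited log2 signal for 35556 transcript clusters of Affymetrix Mouse Gene 1.0 ST arrays in 14 samples. The scale was inferred from the range of the table, 2.87 to 14.8. Per the submitters' processing notes, Affymetrix Expression Console 1.1 and build mm9 were used. How background, normalization and filters were handled is not given in the sources used here. The values were fitted as deposited, and no detection call accompanied the values. The number of arrays limits the precision.

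A single symbol was given to 21789 clusters (21698 updated by identifier through a GRCm38.p6 table used for names and promoter windows), several to 1621 and none to 12146. The brightest cluster was kept for the 999 genes with several, leaving 19938 genes. Group means were fitted to all 14 arrays with limma 3.58.1 in R 4.3.3. Mouse, named in the labels and pairing 5 tumors with adjacent tissue, was a random block (correlation 0.334), and p-values were adjusted over all genes. Intervals were two-sided 95% intervals, with a quantile of 2.139 for the moderated statistic. The script was tested on simulated data.

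The 10 genes and all lists were chosen with earlier results of these data known. Named genes are the 10 in every comparison, up to 4 genes per pathway class that passed and changed most (at least 2, others added where fewer passed), up to 3 genes per marker list and the 3 nearest by correlation; exceptions are stated. Alternatives were another treatment of mouse, array weights, trend and robust moderation, rescaling, a filter on dim genes, averaged clusters, the ID letter, the acinar split (list mean above 10) and leaving out each array.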

Additional observations from a re-analysis of the deposited data

How the results depend on the processing

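No detection call or background value accompanied the signal, so how far a gene stood above background could not be read. Of the 6 Notch genes past the threshold between tumor and adjacent tissue, 1 passed within ID letter F and 2 against adjacent arrays with acinar transcripts only, and of 38 pathway genes 7 and 12 passed there. In these subsets, which share the same adjacent arrays, 8.62% and 10.9% of all genes passed, from fewer arrays. Against wildtype the count of Notch genes, 1 as reported, was 4 with array weights (47.8% of all genes) and 2 within letter B. It was 0 with only acinar non-tumor arrays, and 0 to 2 when each array was left out. Letter F and the non-tumor arrays without acinar transcripts hold 1 wildtype array each, so no counts against wildtype are given for them. The count of 13 pathway genes against wildtype was 34 with array weights, 3 with only acinar non-tumor arrays, and 5 to 19 when each array was left out. Between adjacent and wildtype tissue 1 pathway gene passed with array weights, against 0 as reported. Without the replicate block 5 of the 6 calls between tumor and adjacent tissue held, all but Hey1, and with mouse as a fixed effect 6 passed; the block changed no other call among the 10 genes. Reversals concerned log2 fold changes of genes that did not pass. Between tumor and adjacent tissue Notch1 was -0.010 after quantile normalization and -0.18 within letter F, with -0.043 to 0.13 over the fits without 1 array, and Notch2 was -0.0029 with array weights and -0.022 without acinar arrays. Between tumor and wildtype Jag2 was -0.013 without acinar arrays, and ran from -0.0081 to 0.13 over the fits without 1 array. Between adjacent and wildtype tissue Notch1 was -0.036 with array weights and -0.038 without acinar arrays, Notch2 -0.017 with acinar arrays only, and Notch3 -0.16 with array weights, -0.12 within letter B and -0.16 without acinar arrays. There Dll1 was -0.062 with array weights, Dll4 -0.11 within letter F and -0.086 with acinar arrays only, Jag2 0.0016 with arrays centred on their median and 0.074 within letter F, and Hey1 0.054 within letter F. Over the fits without 1 array, Notch1 ran from -0.0017 to 0.19, Notch3 from -0.11 to 0.094 and Dll1 from -0.078 to 0.64 in that comparison. The cause of these reversals was not tested. Of the other alternatives for single genes, 363 kept direction and side of the threshold, 14 lost and 6 gained the call, and of the fits without 1 array 403 kept both, 6 lost and 1 gained it. Jag1 passed between tumor and adjacent tissue in all 28 alternatives run and Hes1 in 27, while Hey1 passed in 20, and Notch4, Dll1 and Dll4 in 26 each.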

Other observations

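Products of the secretory lineages, which in the gut arise from cells without Notch signal, moved in both directions between tumor and adjacent tissue. Among 10 enteroendocrine markers the hormone genes Gip, Gcg and Sst fell, by 2.25 ± 0.24 (SE), 2.18 ± 0.31 and 1.79 ± 0.39 on the log2 scale, with adjusted p of 6.94e-06, 7.48e-05 and 0.00263 in limma. Each was lower in the tumor in 5 of 5 pairs. Among 9 goblet and Paneth cell markers Agr2, a chaperone of mucin-making cells, rose by 1.19 ± 0.14 (adjusted p = 2.09e-05). Lyz1, a lysozyme of Paneth cells, fell by 2.57 ± 0.60 (adjusted p = 0.00387) and Itln1, a lectin, by 1.47 ± 0.27 (adjusted p = 0.000701). In the same comparison 10 of 10 gastric pit and mucous cell markers rose, where 19.1% of all genes did. The part of gastric cells in the Agr2 difference was not tested.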
